A study of Mus musculus with 2 samples.

Results

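The Mir183 cluster is a run of 3 microRNA hairpin genes on mouse chromosome 6, Mir183, Mir96 and Mir182, and its 3 members were found by symbol among 1973 miRNA genes in the count tables. The tables come from small RNA sequencing of inserts below 30 nt from the embryonic facial prominence, the outgrowths that form the face and jaws. The tissue was taken at 10.5 days from healthy B6NCrl mouse embryos with no treatment named, and males and females were mixed. The libraries form 1 group of 2 biological replicates: replicate 1 pooled 69 embryos and replicate 2 pooled 51, so each value is an average over many embryos and no second condition was measured. Levels are given as CPM, a gene's count per 1000000 counts over all miRNA genes on their own strand, and errors are the SD over the pools (n = 2).

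MicroRNAs are cut from hairpin precursors and guide the silencing of mRNAs that pair with the seed, the bases near the 5′ end of the mature strand. The members of the Mir183 cluster are made from a shared primary transcript and are best known from sensory cells: hair cells of the inner ear, photoreceptors, olfactory neurons and sensory ganglia. In the embryonic head they are known from the olfactory, otic and cranial sensory placodes, patches of ectoderm from which these organs arise. Mutations in the seed of Mir96 cause progressive hearing loss in mice and humans, and loss of the cluster in mice impairs several senses.

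The hairpins are printed first because the members are told apart, in cells and in the counts, by their sequence. Each is shown 5′ to 3′ as RefSeq gives it (GRCm38.p6, minus strand), with both mature arms in capitals, and all 3 are identical to the hairpins in the GENCODE M21 annotation. Mir183 lies at chr6:30169668-30169737, Mir96 at chr6:30169446-30169551 and Mir182 at chr6:30165918-30165992.
Mir183: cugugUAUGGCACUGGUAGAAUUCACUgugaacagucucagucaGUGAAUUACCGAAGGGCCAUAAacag
Mir96: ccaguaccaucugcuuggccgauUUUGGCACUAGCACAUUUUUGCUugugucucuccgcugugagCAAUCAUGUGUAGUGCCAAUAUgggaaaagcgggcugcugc
Mir182: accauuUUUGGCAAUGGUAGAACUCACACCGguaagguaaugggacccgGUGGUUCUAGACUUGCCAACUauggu

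The 5′ arms are shown again with the seed, bases 2 to 8, in capitals, beside the other mouse miRNA in the RefSeq table whose 5′ arm shares the seed of miR-96-5p.
mmu-miR-183-5p: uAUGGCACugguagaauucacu
mmu-miR-96-5p: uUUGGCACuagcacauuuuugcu
mmu-miR-182-5p: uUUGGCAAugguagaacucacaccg
mmu-miR-1271-5p: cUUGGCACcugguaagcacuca

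The 3 members have 3 different seeds. Counting from 1 at the 5′ end, miR-182-5p and miR-96-5p are identical over positions 1 to 7 and differ in the seed by A8C, with miR-182-5p as the reference. Against the same reference, miR-183-5p differs in the seed by U2A and A8C. Over the aligned arms, seed included, the likeness falls differently. There miR-182-5p and miR-183-5p share 18 of 22 positions (81.8%), including the run UGGUAGAA at positions 9 to 16. The miR-96-5p arm shares 12 of 23 positions with miR-182-5p and 13 of 22 with miR-183-5p. No hairpin of the cluster shares a stretch of 20 bases with another miRNA hairpin, so none of them had a near-identical copy among the miRNA genes. miR-1271-5p is made from Gm24195, which had 0 counts in both libraries, which leaves room for 3 counts, equal to 1.05 CPM in the first library and 0.853 CPM in the other. Among 3′ arms, miR-96-3p shares its seed with miR-3475-5p, whose gene Mir3475 had 70 and 79 counts. The tables sum both arms of a hairpin, so levels of single arms were not analysed here.

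The members stand unevenly along the locus. Transcribed from the minus strand, Mir183 comes first, Mir96 follows after 116 bases and Mir182 after a further 3453 bases, so that the cluster spans 3820 bases. GENCODE M21 lists no host gene over them. RefSeq places all 3 inside the span of the long non-coding gene Mirc35hg (chr6:30158640-30174125, minus strand), which begins 4388 bases before the 5′ end of Mir183; the RefSeq table used gives no exons, so exonic or intronic position was not analysed here. On the opposite strand, Rncr4 (chr6:30172893-30175126), a long non-coding RNA known from retina, overlaps the start of Mirc35hg. The nearest coding genes are Nrf1, 12460 bases away, and Ube2h, 41552 bases away.

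**Figure D1:**
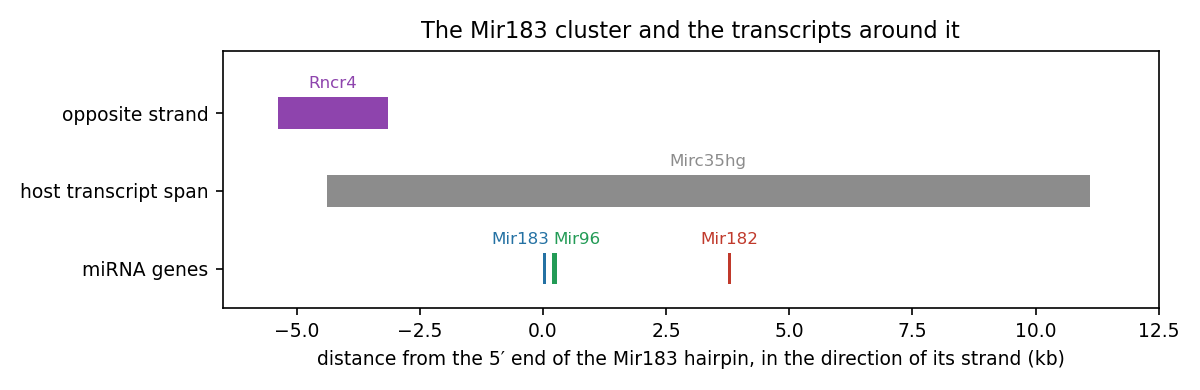
Map of the locus to scale. The x axis is the distance in kb from the 5′ end of the Mir183 hairpin along its strand, and each bar is 1 annotated gene, with the miRNA genes below, the RefSeq span of Mirc35hg in the middle and Rncr4 on the opposite strand above. Mir183 and Mir96 lie 116 bases apart, and Mir182 lies 3453 bases beyond Mir96.

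The window around the annotated start of Mirc35hg is printed because the 3 hairpins share it as the closest annotated start upstream on their strand. It covers 250 bases before and 50 bases after that start (RefSeq, GRCm38.p6, chr6:30174076-30174375, minus strand), with matches to the motifs searched in capitals.
Mirc35hg promoter: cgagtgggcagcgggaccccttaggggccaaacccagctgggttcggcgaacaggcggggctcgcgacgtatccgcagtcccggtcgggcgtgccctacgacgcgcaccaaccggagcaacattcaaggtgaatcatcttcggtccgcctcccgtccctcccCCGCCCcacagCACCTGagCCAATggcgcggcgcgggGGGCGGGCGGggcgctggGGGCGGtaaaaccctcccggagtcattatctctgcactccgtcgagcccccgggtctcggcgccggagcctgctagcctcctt

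Of these bases 70.3% are G or C, against a median of 52.7% over 32851 promoter windows of the same length, and the window holds 35 CpG dinucleotides against a median of 7. Both strands were searched for 4 motifs. The GC box GGGCGG matched 4 times, between 88 and 33 bases before the start, with 2 of the matches overlapping, and 35.7% of all windows hold it. CCAAT matched once, 69 bases before the start (37.4% of windows), and the E-box CACCTG, a sequence bound by ZEB and Snail factors, matched once, 77 bases before the start (20.2% of windows). TATAAA, held by 13.6% of windows, was not found. A match describes the letters only.

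All 3 members were abundant in the facial prominence, in the order Mir182, Mir183, Mir96. Mir182 (ENSMUSG00000076361.1) had 53170 counts in replicate 1 and 42344 in replicate 2, or 18633 and 12039 CPM. Mir183 (ENSMUSG00000065619.2) had 34574 and 37787 counts, or 12116 and 10743 CPM. Mir96 (ENSMUSG00000065586.1), the deafness gene of the cluster, had 15158 and 15861 counts, or 5312 and 4510 CPM. Replicate 1 was the higher library for each of the 3 genes in CPM.

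The means were 15336 ± 4663 CPM for Mir182, 11430 ± 971 CPM for Mir183 and 4911 ± 567 CPM for Mir96. Among all miRNA genes, Mir182 ranked 12 in replicate 1 and 16 in replicate 2, Mir183 ranked 17 and 18, and Mir96 ranked 45 and 49. Within each library Mir182 lay above Mir183, but across libraries their ranges overlapped, since Mir182 in replicate 2 (12039 CPM) was just under Mir183 in replicate 1 (12116 CPM). Mir96 lay below both other members in both libraries, with no overlap. The 3 genes together took 3.61% of counts in replicate 1 (exact Clopper-Pearson 95% interval 3.58% to 3.63%) and 2.73% in replicate 2 (2.71% to 2.75%). These intervals cover counting error only, since amplified reads are not independent molecules. In a whole tissue, fewer cells that make a miRNA and less of it per cell cannot be told apart. Among 104 genomic clusters of miRNA genes (genes on 1 strand within 10 kb of the next), the sum ranked 5 in replicate 1 and 6 in replicate 2.

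**Figure D2:**
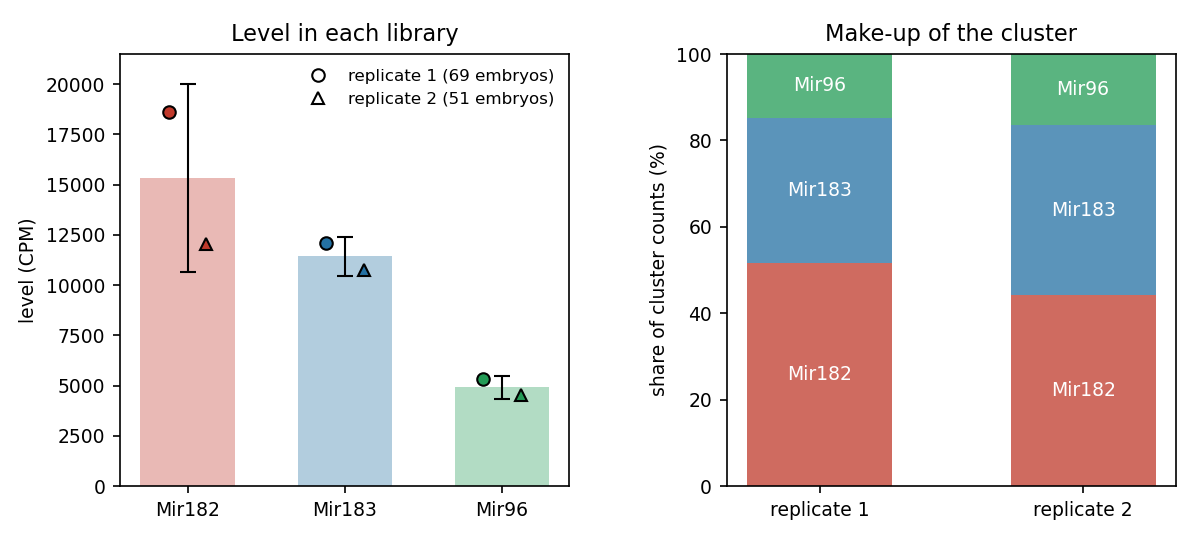
Left, level of each member in CPM: points are the libraries, bars the mean and error bars the SD (n = 2). Right, the share of the cluster's counts from each member in each library. Replicate 1 is above replicate 2 for all 3 genes, and the share of Mir182 is 51.7% in replicate 1 and 44.1% in replicate 2.

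Neighbours in the order of levels show how far 2 pools can resolve it. The genes next above Mir182 in mean level were Mir93 (20569 ± 222 CPM), of the proliferation-linked Mir106b-25 cluster, Mir30e and Mir99b, and none of them overlapped it in range. All 3 genes next below overlapped it: Mir18 (15075 ± 739 CPM), Mir106b (14900 ± 1001 CPM) and the mesenchymal Mir214 (14538 ± 1041 CPM) were lower than Mir182 in replicate 1 and higher in replicate 2. Mir183 was better separated. It lay below Mir130b, Mir214 and Mir106b and above Mir487b and Mir92-1 in both libraries, and overlapped only Mir100 (11317 ± 599 CPM) among its 6 neighbours. Mir96, at 5312 and 4510 CPM, overlapped all 6 of its neighbours in range. Within each library, Mir342 and Mir181c lay above it and Mir30d below it. Its order was loose against the rest: Mir302d and Mir20b were lower than Mir96 in replicate 1 and higher in replicate 2, and Mir181d the reverse.

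The members differed between the pools by unequal amounts. Mir182 was 1.55 times as high in replicate 1 as in replicate 2 (exact 95% counting interval 1.53 to 1.57), a log2 ratio of -0.63 for replicate 2 over replicate 1. Mir96 had a log2 ratio of -0.24 (-0.27 to -0.20) and Mir183 of -0.17 (-0.19 to -0.15). The summed cluster had a log2 ratio of -0.40, and -0.19 with Mir182 left out. Of the gap of 8769.6 CPM between the pools in the cluster's sum, Mir182 made up 75.2%.

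For the 449 genes with at least 10 counts over both pools, the split of reads between the libraries was set against the split of the totals (exact binomial, two-sided, Benjamini-Hochberg adjusted over those genes). The test compares these libraries beyond counting error, not conditions. All 3 members passed it as lower in replicate 2, with an adjusted p of 2.1e-57 for Mir183 and 6.1e-46 for Mir96, and below 1e-300, the limit of the calculation, for Mir182. At such counts a pass is common: 40.3% of all tested genes passed and 20.3% passed as lower in replicate 2, while among the 104 genes whose mean reached 1000 CPM the shares were 91.3% and 45.2%. The size of the ratio separates the members better than the test. The median absolute log2 ratio of the 101 other genes at that level was 0.16, and 45 of them had a larger absolute ratio than Mir183, 29 a larger one than Mir96 and 6 a larger one than Mir182. The median signed ratio of these 101 genes was 0.04. With both pools in 1 group, the difference between them is itself the spread between replicates, so Mir183 lay close to the typical spread at its level and Mir182 far out in it.

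Genes further from equality than Mir182 on the same side, named after their values were seen, were Mirlet7i (-1.17), Mirlet7g (-0.73) and Mir181b-2 (-0.70), the last with sequence shared with another hairpin. The let-7 miRNAs accumulate as cells differentiate. By the absolute difference of log2 ratio to the median of the members, over the 2 libraries, the genes of at least 1000 CPM most like the cluster were Mir21a (-0.23), Mir541 (-0.25), Mir27b (-0.21), Mir301 (-0.26) and Mir143 (-0.20). Of these genes, Mir27b shares sequence with another hairpin. With 2 libraries the likeness rests on 1 number per gene.

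**Figure D3:**
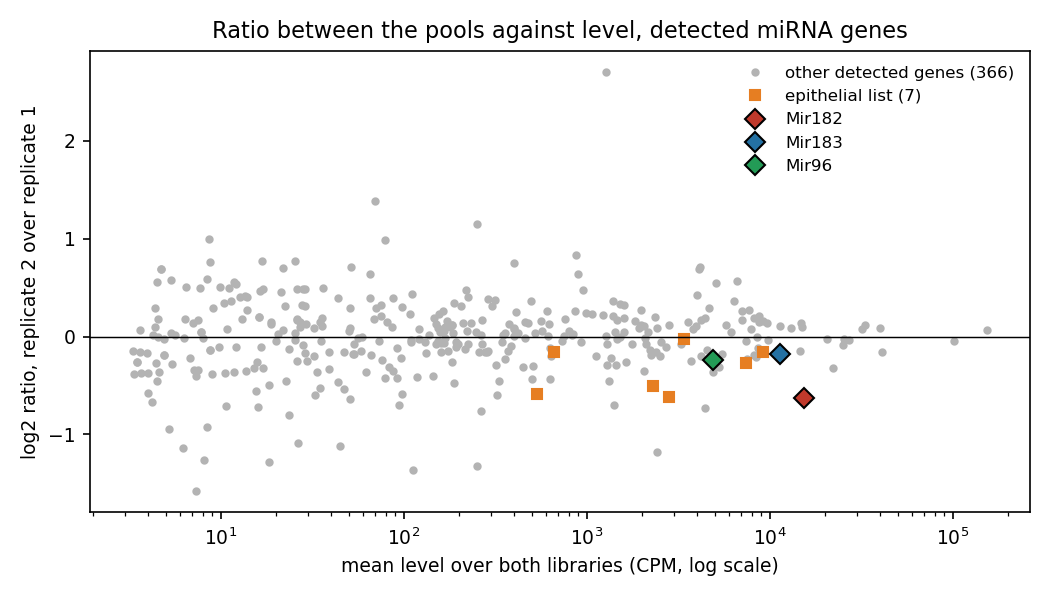
The x axis is the mean level in CPM on a log scale and the y axis the log2 ratio of replicate 2 over replicate 1, 1 point per miRNA gene that reached 10 counts in each library. The members are diamonds and the 7 epithelial genes squares. All 3 members lie below the line of equality, with Mir96 and Mir183 at -0.24 and -0.17 and Mir182 apart from them at -0.63.

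Inside the cluster, Mir182 changed its proportion to both other members. It made up 51.7% of the cluster's counts in replicate 1 (exact 95% interval 51.4% to 52.0%) and 44.1% in replicate 2 (43.8% to 44.4%). Mir183 made up 33.6% and 39.4%, and Mir96 14.7% and 16.5%. Per read of Mir183 there were 1.54 reads of Mir182 in replicate 1 and 1.12 in replicate 2. Per read of Mir96 there were 3.51 and 2.67 reads of Mir182. Mir96 held its proportion to Mir183 far more closely, with 0.438 and 0.420 reads of Mir96 per read of Mir183.

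These proportions do not depend on how the libraries are scaled. They were tested by a two-sided Fisher exact test for each of 737 pairs of genes in 1 genomic cluster, with Benjamini-Hochberg adjustment over all pairs. All 3 member pairs passed, with an adjusted p of 1.9e-222 for Mir182 and Mir183, 5.6e-94 for Mir182 and Mir96 and 0.0050 for Mir96 and Mir183. Passing was again common, at 39.1% of all pairs and 77.3% of the 97 pairs with both genes at a mean of at least 1000 CPM. Those 97 pairs came from 16 clusters, and most of them join genes of chromosome 12 that recur in many pairs. Among them the median absolute change in the log2 proportion was 0.15. This median and the ranks that follow therefore describe mostly the pairs of that chromosome. Mir182 and Mir183 changed by 0.46, and only Mir323 and Mir541 (0.62), named after the values were seen, changed by more. Mir182 and Mir96 changed by 0.39, with 9 pairs above them. Mir96 and Mir183, the members 116 bases apart, changed by 0.06, and 72 of the 97 pairs changed by more.

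The Mir183 cluster had the most even read counts of the 5 genomic clusters with exactly 3 detected genes, detected meaning at least 10 counts in each library. Its highest member was 3.51 times its lowest in replicate 1 and 2.67 times in replicate 2. In the Mcm7 cluster of Mir93, Mir106b and Mir25 this ratio was 15.7 and 16.3, and in the epithelial cluster of Mir429, Mir200b and Mir200a it was 12.7 and 15.7. In the cluster of Mir23a, Mir27a and Mir24-2, whose hairpins share sequence with paralogs, it was 37.2 and 43.2. In that of Mir341, Mir370 and Mir1188, 3 detected of 4 genes, it was 98.6 and 97.9, with Mir1188 lowest at 15.1 and 17.3 CPM. The span of log2 ratios between the pools was 0.46 within the Mir183 cluster, 0.31 within the Mir429 cluster and between 0.17 and 0.22 within the other 3. These are descriptions of 5 clusters with no test.

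**Figure D4:**
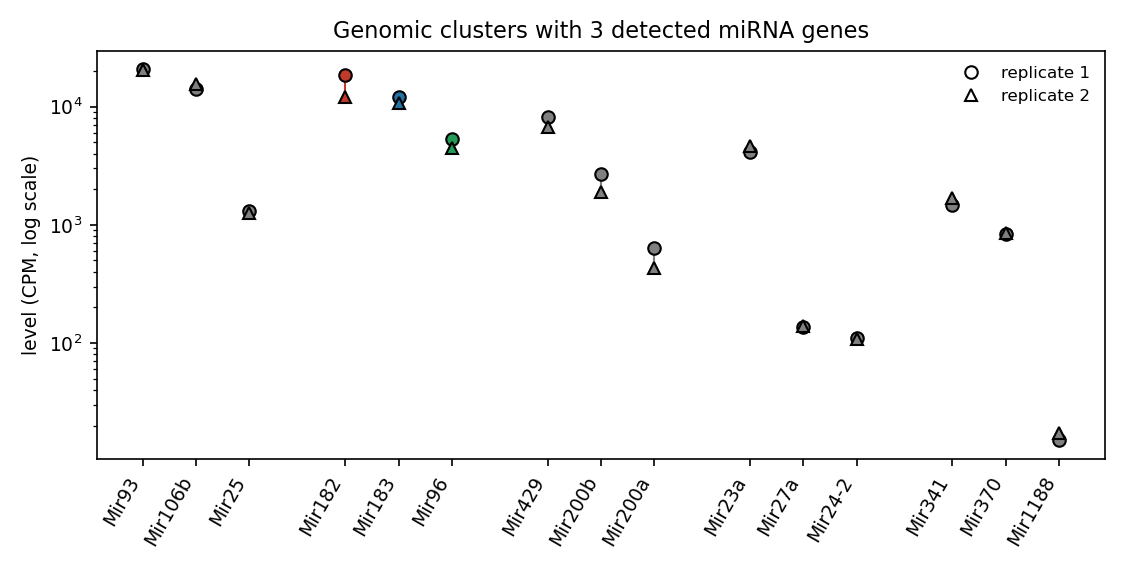
The y axis is the level in CPM on a log scale for each gene of the 5 clusters with 3 detected genes, as circles for replicate 1 and triangles for replicate 2 joined by a line. The members of the Mir183 cluster, in colour, lie closest together in level, between 4510 and 18633 CPM, and Mir182 shows the widest gap between pools among them.

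Other epithelial and sensory miRNAs were set beside the cluster, since placodes are thickened epithelium. The epithelial list holds the Mir200 family with Mir205 and Mir203, which mark surface and glandular epithelia. Its 7 genes summed to 28691 CPM in replicate 1 and 23965 in replicate 2, below the 3 members of the Mir183 cluster (36062 and 27292 CPM) in both libraries. Of the 7, 6 passed the binomial test as lower in replicate 2 and 0 as higher, with a median log2 ratio of -0.27 against 0.01 over all 449 tested genes. For comparison, 20.3% of all tested genes and 45.2% of those of at least 1000 CPM, where 5 of the 7 lie, passed as lower. The most abundant, Mir205 with 9689 and 8685 CPM (-0.16) and Mir429 with 8123 and 6716 CPM (-0.27), had ratios near those of Mir183 and Mir96, as did Mir141 with 695 and 624 CPM (-0.16). The epidermal Mir203 had 3402 and 2220 CPM (-0.62), close to the ratio of Mir182, Mir200a 640 and 427 CPM (-0.58) and Mir200b 2702 and 1902 CPM (-0.51). Mir200c, at 3441 and 3391 CPM, did not pass (adjusted p = 0.46, exact binomial test). The summed level of epithelial miRNAs thus differed between the pools in the same direction as that of the Mir183 cluster. This direction was not particular to epithelium. The mesenchyme and neural crest genes below summed to 43151 and 38743 CPM, with a median log2 ratio of -0.20. The eye and endocrine list had a median of -0.26, the value of Mir184 at 49 and 50 counts, which did not pass. Its sums were nearly equal, at 2256 and 2224 CPM. The neural list had a median of 0.14. What part epithelial miRNAs had in the cluster's difference was not tested.

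MicroRNAs of the eye and endocrine organs were far lower. Mir204, Mir211, Mir184, Mir375 and Mir7b summed to 2256 and 2224 CPM, and of these 5 tested genes 2 passed as lower and 1 as higher in replicate 2, with a median log2 ratio of -0.26, where 40.3% of all tested genes passed and 20.3% passed as lower. The pigment cell miRNA Mir211 had 387 and 256 CPM (-0.59), Mir7b had 161 and 62.3 CPM (-1.37), Mir375 had 1289 and 1489 CPM (0.21) and Mir204 had 402 and 402 CPM. The 12 neural genes matched summed to 1869 and 3881 CPM. Mir137 had 680 and 593 CPM, Mir153 had 387 and 412 CPM, and Mir219a-2 had 339 and 2217 CPM, which made it the highest of the list in replicate 2. Of 10 tested, 2 passed as lower, a share close to the 20.3% over all tested genes, and 4 as higher, with a median of 0.14. In either direction, 40.3% of all tested genes passed. Sequence is shared with another hairpin by 9 of the 12, among them all 4 higher genes, Mir219a-1, Mir219a-2, Mir124a-2 and Mir124a-3. Most of the higher sum in replicate 2 came from Mir219a-2. Mir124a-1, Mir124a-2 and Mir124a-3, made by neurons, had at most 16 counts in a library. Mir9-2 had at most 2 and Mir9-3 had 117 and 100, while reads mapping to several places were not assigned to them. Mir9-1, Mir24-1, Mir7a-1 and Mir7a-2 of the lists had no gene of that symbol among the matched identifiers.

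Genes of mesenchyme and neural crest, 12 of them matched, reached 43151 and 38743 CPM together, above the Mir183 cluster in both libraries. Of its 11 tested genes 7 passed as lower in replicate 2 and 1, Mir22, as higher (0.12), with a median of -0.20, against 20.3% of all tested genes and 45.2% of those of at least 1000 CPM as lower. Mir214 had 15275 and 13802 CPM (-0.15), Mir140, the miRNA of cartilage, 4517 and 3943 CPM (-0.20), and Mir143 9047 and 7851 CPM (-0.20). Of the 12 matched genes 5 share sequence with another hairpin, among them Mir23b and Mir27b, which are part of the sum. Mir199b, another of these 5, had 1539 and 1122 CPM (-0.46), and Mir152 had 97.8 and 76.8 CPM (-0.35). Markers of both facial tissue layers were therefore present in both pools beside the cluster.

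The hairpins themselves were ordinary in composition. Their GC content was 48.0% for Mir182, 45.7% for Mir183 and 50.9% for Mir96, against a median of 51.0% over 1894 hairpins. Folded with ViennaRNA, the predicted minimum free energy was -29.9 kcal/mol for Mir182, -26.2 for Mir183 and -47.9 for the longer Mir96 hairpin. Per base this was -0.40, -0.37 and -0.45 against a median of -0.38.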

How the data were processed

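The authors deposited 1 table of raw read counts per library, and per the files accompanying the tables these refer to mm10 with GENCODE M4. No aligner is named: it is not given in the sources used here. Each gene has a count on either strand, on its own strand and on the opposite strand, and the first is the sum of the others in all 1973 genes. Counts on a gene's own strand entered all main results. Gene totals were 2853511 (replicate 1) and 3517226 (replicate 2), 41.8% and 40.7% of reads. The 4 summary lines name no gene and were left out: 21.6% and 24.1% of reads were unmapped, 27.6% and 25.9% mapped to several places, and 9.01% and 9.32% lay outside genes.

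CPM was computed over all gene rows. Ratios are log2 of CPM plus 0.5 in replicate 2 over replicate 1. Identifiers without version were matched to GENCODE M21 (GRCm38, the same build), with 1894 of 1973 matched. Sequences came from RefSeq tables, which hold hairpins for 869 of the genes by symbol and for all 3 members. With 1 group of 2 libraries no contrast could be fitted with edgeR's quasi-likelihood test, so exact binomial and Fisher tests with Benjamini-Hochberg adjustment over all features (threshold 0.05) compared the libraries. The procedures were tested on simulated counts that held counting error and set changes, with no further spread between replicates. That check therefore does not cover the spread between these pools. The libraries differed beyond sampling noise, so they are not 1 library deposited again. The labels call them biological replicates, and name the same strain for both.

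The members and gene lists were chosen with earlier results of these data known. Genes named beside the members were, by rule, the 3 neighbours on each side in mean CPM, the 5 genes of at least 1000 CPM nearest in ratio, the listed marker genes, genes that share bases 2 to 7 of a mature arm, and the genes of clusters with 3 detected genes. Alternatives were the unstranded count, TMM (edgeR 4.0.16) and DESeq2 (1.42.0) scaling, a total without the 10 highest genes, other pseudocounts and minimum counts, a longer gap between cluster genes, and each library alone. Added after seeing the data were a total of all reads and the cluster without Mir182. Python 3.11.15, scipy 1.17.1 and ViennaRNA 2.7.2 were used.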

Additional observations from a re-analysis of the deposited data

Results flagged for a closer look

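Reads on the strand opposite Mir183 exceeded 3 counts in both libraries, in a column that the comparisons above do not use. There were 5 such reads in replicate 1 and 9 in replicate 2, beside 34574 and 37787 on the strand of Mir183. Mir182 had 2 and 8 opposite-strand reads and Mir96 had 0 and 0. Over all miRNA genes 2.43% and 2.44% of gene reads were on the opposite strand.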

How the results depend on the processing

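The 3 members kept their direction and passed the binomial test under all 6 alternatives for the ratio. Of these, the other pseudocount does not enter the test and could not change its result. The unstranded count adds at most 9 reads to a member in a library. Mir182 ranged from -0.67 to -0.61, Mir183 from -0.21 to -0.15 and Mir96 from -0.27 to -0.22. The log2 ratio of the cluster sum was -0.38 with TMM, -0.44 with a total of all reads and -0.19 without Mir182, the last by construction, because the other members differ less. The summed level depended on what it is divided by, at 63485 CPM with a total without the 10 highest genes and 13088 CPM with a total of all reads, and on the library, with 27292 CPM without replicate 1 and 36062 without replicate 2. Genes that differed between the libraries were 181 of 449 (40.3%), 144 of 356 (40.4%) among genes that share no 20-base stretch, 169 of 449 with TMM and 186 of 462 in the unstranded count. They were 170 of 741 (22.9%) at a minimum of 1 count and 175 of 300 (58.3%) at a minimum of 100, since these settings change which genes are tested. All 3 member pairs passed the Fisher test in each of the 3 alternatives for pairs, which could hardly change that outcome. The longer gap and the higher minimum leave the members' counts as they are and change only the pairs adjusted over. The unstranded count adds few reads to them. No paired analysis was possible because there is only 1 group. Counts of 15158 or more per member and library make counting error small, and having only 2 pools limits every comparison.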
